A study of Mus musculus with 2 samples.

Results

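The 10 genes described here carry oxygen, clear free hemoglobin and heme, or store and move iron: the alpha-globin genes Hba-a1 and Hba-a2, the scavenging genes Hp, Hpx and Cd163, and the iron genes Fth1, Ftl1, Slc40a1, Trf and Tfrc. They were taken by symbol from 15348 genes in a deposited table of liver RNA, and 10 of 10 symbols were found there. The 10 symbols were chosen with earlier results of these data known. Liver RNA came from female NOG-TKm30 mice aged 16 weeks, an immunodeficient strain with a transgene for a mutant (clone 30) of the thymidine kinase of herpes simplex virus. The enhancer and promoter of mouse transthyretin, a gene active in hepatocytes, drive it. The treated mice received ortho-toluidine (OTD) at 0.6% for 1 week and then at 0.3% for 3 weeks, 4 weeks in all, while the control mice received 0% over the same time and are labelled with the same strain. The OTD library held mixed RNA of 5 mice and the control library mixed RNA of 3 mice, so each group had 1 library and the spread between mice could not be measured. How the compound was given, and if blood was flushed from the livers, is information not given in the sources used here. The treatment protocol names C57BL mice where the other labels name NOG-TKm30, and both column names of the table hold the word Wild, with no explanation in the labels.

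Red cells are broken down by macrophages, among them the Kupffer cells of the liver, and some hemoglobin is set free in plasma. Haptoglobin (Hp) binds free hemoglobin, hemopexin (Hpx) binds free heme, and CD163 on macrophages takes hemoglobin up. The iron is stored in ferritin (subunits Fth1 and Ftl1), leaves cells through ferroportin (Slc40a1), travels on transferrin (Trf) and enters cells through transferrin receptor 1 (Tfrc). Aromatic amines such as ortho-toluidine are known to oxidize hemoglobin once the liver has metabolized them.

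The alpha-globin genes are shown first because their sequence limits what can be said of each copy. In GRCm38 (the mm10 build named in the submitters' processing notes), Hba-a1 lies on chromosome 11 at 32283511 to 32284465 and Hba-a2 at 32296489 to 32297298, both on the plus strand, with 12023 bases between them and 3 exons each. Their coding sequences of 429 bases differ at 1 position, C381T (the Hba-a1 base, the position counted from 1 at the A of the start codon, then the Hba-a2 base), and both encode the same protein of 142 residues. The stretch around that position, in the last exon, is at chr11:32284313-32284373 for Hba-a1 and chr11:32297130-32297190 for Hba-a2, with the differing base in capitals.
Hba-a1: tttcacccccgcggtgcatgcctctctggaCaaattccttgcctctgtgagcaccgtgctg
Hba-a2: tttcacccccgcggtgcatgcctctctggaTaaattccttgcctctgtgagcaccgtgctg

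The copies also share the DNA in front of them: the RefSeq promoter windows of Hba-a1 and Hba-a2 matched over 297 bases with 0 mismatches at an offset of 3. The 247 bases before the annotated start of Hba-a2 (RefSeq table of GRCm38.p6, chr11:32296242-32296488, plus strand) are given because both copies carry them. Capitals mark GATAAG (the letters bound by GATA factors of red cell precursors), the CACCC box, the CCAAT box and TATAA, searched on both strands, with no overlap between the matches found.
Hba-a2 upstream: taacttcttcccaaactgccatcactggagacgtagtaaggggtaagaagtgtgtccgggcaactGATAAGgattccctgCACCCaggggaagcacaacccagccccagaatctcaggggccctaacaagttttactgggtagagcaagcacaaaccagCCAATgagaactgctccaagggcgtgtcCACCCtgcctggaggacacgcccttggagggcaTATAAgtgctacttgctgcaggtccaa
GATAAG was found at 1 place in this window and in 6.49% of 32851 promoter windows of the same length. CCAAT was in 33.6% of those windows, TATAA in 22.7% and CACCC in 51.6%. A match is a description of letters and not of binding.

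A second set of sequences marks the iron genes. Iron regulatory proteins bind a hairpin, the iron-responsive element, whose loop reads CAGTGN. Before the coding part it holds back translation when iron is scarce, and after the coding part of Tfrc it protects the RNA from decay. Elements were searched on the sense strand as a bulged C, 5 paired bases, a CAGTGN loop whose last letter was not G, and at least 4 of 5 paired bases below the bulge. Such an element was found in 24 of 21877 protein-coding genes (0.110%) and in 4 of the 10 genes here, namely Fth1, Ftl1, Slc40a1 and Tfrc. In Fth1 (chr19:9982733-9982760, plus strand), Ftl1 (chr7:45459779-45459806, minus strand) and Slc40a1 (chr1:45925465-45925492, minus strand) it lay in the 5' UTR. In Tfrc the search found 4 elements in the 3' UTR, and it would miss hairpins that pair less well than its rule asks. Of those found, the first (chr16:32631220-32631247) and the last (chr16:32631711-32631738, both plus strand) are shown. Capitals mark the loop.
Fth1: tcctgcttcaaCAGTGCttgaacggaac
Ftl1: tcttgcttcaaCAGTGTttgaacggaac
Slc40a1: aacttcagctaCAGTGTtagctaagttt
Tfrc first: attatcggaagCAGTGCcttccataatt
Tfrc last: attatcgggaaCAGTGTttcccataatt

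Levels are the deposited scaled CPM (counts per sequencing depth, divided by a scaling factor of each library). They could be turned back into whole reads, 14685193 in the OTD library and 13569189 in the control library. A gene was called measured at a mean level of at least 10 over the OTD and control libraries, which held for 7602 genes and for all 10 described here. Ratios are OTD over control with 95% intervals from the division of reads between the libraries (exact, Clopper-Pearson). They cover counting error only, and with 1 library per group no test of the treatment was possible. Log2 ratios were computed on level + 1, which understates differences of low genes. Among the markers of the labelled tissue, albumin (Alb) stood at 69694 in the OTD pool and 81661 in the control pool. The ribosomal RNA precursor Rn45s, a sign of how well ribosomal RNA was removed, took 2.66% of OTD reads and 1.47% of control reads. Scaling to the same total shifted log2 ratios of levels by 0.056 with Rn45s kept in and by 0.073 without it.

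Per kilobase of the main annotated transcript the 10 genes spanned a wide range in both libraries. Trf led with 7482 per kb in the OTD pool and 8838 per kb in the control pool, and stood at rank 2 of all deposited genes by mean level before division by length. Ftl1 had 2864 per kb in the OTD pool and 2742 per kb in the control pool. Hpx came after it with 1537 per kb in the OTD pool and 1754 per kb in the control pool. Below these stood Fth1, Hp, Hba-a1, Hba-a2 and Slc40a1, in that order in both libraries. Cd163 (6.86 per kb in OTD, 7.83 per kb in control) and Tfrc (6.60 per kb in OTD, 7.64 per kb in control) were lowest. They were the only neighbours in this order whose counting interval of the ratio held 1, with 1.04 (0.912 to 1.18) in OTD and 1.03 (0.901 to 1.17) in control. The order is thus led by plasma transport and storage genes of hepatocytes and closed by both uptake receptors.

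**Figure D1:**
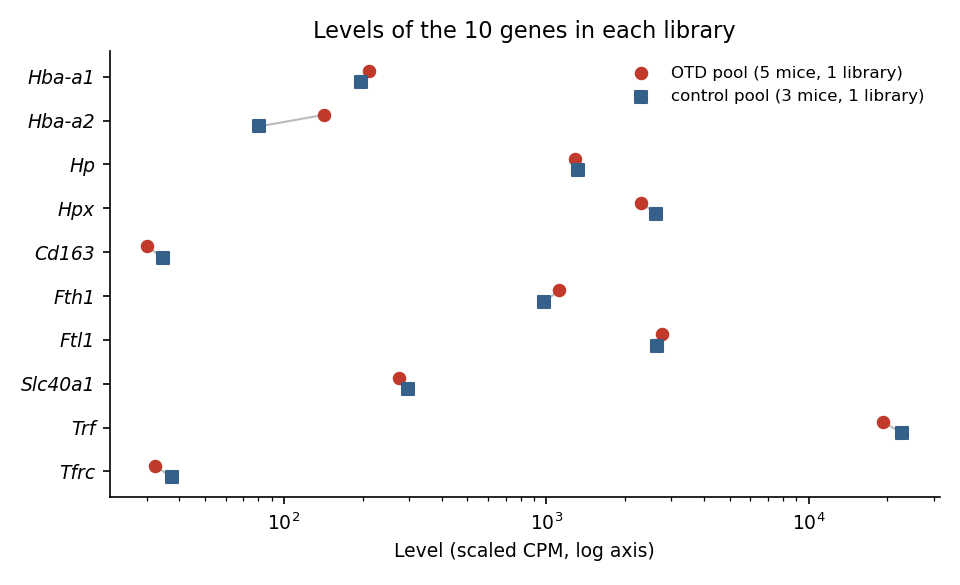
Level of each of the 10 genes (scaled CPM on a log axis, not divided by length) in the OTD pool of 5 mice (circles) and the control pool of 3 mice (squares), 1 library each. Hba-a2 shows the widest gap, at 142.2 in OTD and 80.6 in control.

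Between the pools the 10 genes differed little, apart from Hba-a2. It was the 1 gene at least 1.5-fold higher in the OTD pool, where 1.51% of measured genes were that much higher, and 0 of 10 were at least 1.5-fold lower, against 0.908% of measured genes. At 2-fold, 0 of 10 were higher and 0 of 10 lower (0.210% of measured genes in each direction). The log2 ratio was above 0 for 4 genes, both alpha-globins and both ferritin subunits, and below 0 for the other 6, where 48.4% of measured genes were above 0 and 51.6% below. The median over the 10 genes was −0.072, and that over all measured genes −0.0063. The split over all measured genes depends on the scaling. Scaled to the same total, 60.6% of measured genes were above 0 and 39.4% below, with 152 genes at least 1.5-fold higher and 45 that much lower, against 115 and 69 as deposited. Without Rn45s in the totals 64.6% were above 0, with 169 genes past 1.5-fold higher and 43 lower. Of the 10 genes, Hp turned sign with either scaling, which made the count 5 above and 5 below.

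Counting intervals lay wholly above 1 for 4 genes and wholly below 1 for 6, where 18.6% of measured genes lay above and 19.6% below. Scaled to the same total, 4 intervals lay above 1, 2 below (Hpx and Trf) and 4 held 1 (Hp, Cd163, Slc40a1 and Tfrc). Without Rn45s in the totals, 5 lay above 1 with Hp among them, 2 below and 3 held 1. The intervals narrow with read number, and 8 of the 10 genes had at least 1073 reads in each library, so they say little about variation between mice.

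**Figure D2:**
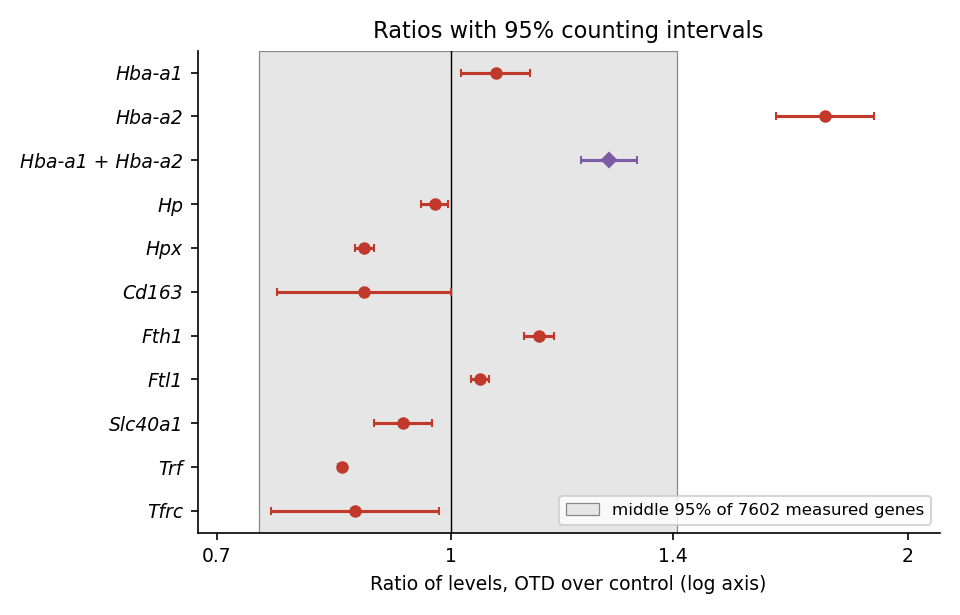
Ratio of levels, OTD over control (log axis), for each gene and for the summed alpha-globin genes (diamond), with bars for the 95% counting interval. The shaded band holds the middle 95% of 7602 measured genes (0.746 to 1.41, from log2 ratios on level + 1), and Hba-a2 is the 1 point outside it.

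The globins came first. Hba-a2 had a level of 142.2 in the OTD pool (2129 reads) and 80.6 in the control pool (1073 reads), a ratio of 1.76 (1.64 to 1.90) and a log2 ratio of 0.81. Among measured genes 99.4% had a lower log2 ratio. Its neighbour Hba-a1 had 211.1 in the OTD pool (3160 reads) and 197.4 in the control pool (2627 reads), a ratio of 1.07 (1.02 to 1.13). The pools were thus far apart for one copy and close for the other.

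Reads of such similar copies can be split between them in counting. Of all 50-base stretches of the main transcript, 86.9% of those of Hba-a2 and 67.5% of those of Hba-a1 also occurred in the other copy, and the coding part has the 1 differing base printed above. The annotated GENCODE transcripts also start at different places, with 196 bases of 5' UTR in Hba-a1 against 35 in Hba-a2. Both copies carry the bases printed before the Hba-a2 start, so this is a difference of annotation and not of sequence there. The shares of stretches given here and the levels per kb rest on these annotated transcripts. The division of shared reads in the authors' counting, like the alpha-globin alleles of the strain, was not given in the sources used here. Hba-a2 took 40.3% of the alpha-globin reads in the OTD pool (exact interval 38.9 to 41.6) and 29.0% in the control pool (27.5 to 30.5). The ratio of a single copy is therefore less certain than its counting interval.

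Summed over both copies, alpha-globin had a level of 353.3 in the OTD pool (5289 reads) and 278.0 in the control pool (3700 reads). The ratio was 1.27 (1.22 to 1.33) and the log2 ratio 0.34, and it stayed between 0.33 and 0.42 in each scaling tried. That sum does not depend on how reads were divided between the copies, provided that reads matching both were kept, which is not known here. Globin RNA is typical of red cell precursors and young red cells, but the cells it came from in these livers were not measured. In bulk RNA a change in the number of cells of a type and a change in RNA per cell cannot be told apart.

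Beta-globin, the partner chain in hemoglobin, did not show the same gap. Over its 4 adult rows (Hbb-b1, Hbb-b2, Hbb-bs and Hbb-bt) the summed level was 179.4 in the OTD pool (2685 reads) and 168.8 in the control pool (2247 reads), a ratio of 1.06 (1.00 to 1.12). Hbb-b1 held most of it, with 144.4 in the OTD pool and 135.0 in the control pool, a ratio of 1.07 (1.00 to 1.14). Hbb-b2 and Hbb-bt had the same reads as each other, 237 in the OTD pool and 200 in the control pool, so they may be 1 measurement listed under 2 symbols. Leaving 1 of them out gave a ratio of the sum of 1.06. Hbb-bs had 50 reads in each library.

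The level of alpha-globin over that of beta-globin was 1.97 (1.88 to 2.06) in the OTD pool and 1.65 (1.56 to 1.74) in the control pool. These are ratios of levels not divided by length, to be compared only between the pools, where length cancels. Their counting intervals did not overlap, with Hbb-b2 and Hbb-bt both counted in the beta sum although they may be 1 measurement. How reads shared between beta-globin rows were counted is also not known here. Of the 13 further globin genes looked for, 7 were in the table and 3 were measured, all of them beta-globin rows with log2 ratios of 0.071 to 0.096. The neuronal and tissue globins Ngb and Cygb, chosen after their values were seen, had 1 and 108 reads in the OTD library and 2 and 106 in the control library.

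**Figure D3:**
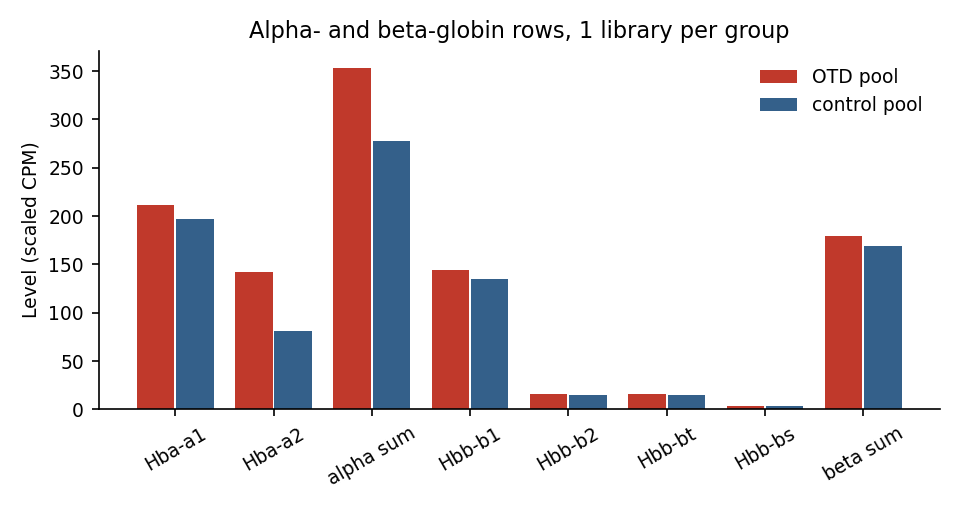
Level (scaled CPM) of each alpha- and beta-globin row and of their sums in the OTD pool (left bar of each pair) and the control pool (right bar), 1 library each and so with no error bar. The alpha sum stands at 353.3 in OTD and 278.0 in control, and the beta sum at 179.4 in OTD and 168.8 in control.

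Red cell precursor genes were looked at beside the globins. Of 25 listed, 19 were in the table and only 2 were measured. Alas2, the red cell enzyme that starts heme synthesis, had 15.0 in the OTD pool and 14.2 in the control pool, a ratio of 1.06 (0.868 to 1.29). The mitochondrial iron importer Slc25a37 had 41.5 in the OTD pool and 32.0 in the control pool, a ratio of 1.30 (1.14 to 1.47).

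The rest of the erythroid genes were low, and more of them were higher in the OTD pool than lower. Without a filter, and with the 2 measured genes included, 17 of the 19 had a log2 ratio above 0 and 2 below. Of all genes with a mean under 10, 52.8% were above 0. Counting intervals lay wholly above 1 for only 4 of the 19 (Slc25a37, Slc4a1, Gypc and Bpgm) and below 1 for 0. Among all 7746 genes with a mean under 10, they lay above 1 for 495 and below 1 for 260. Several of the 17 rested on few reads. The median was 0.24 over the 19 and 0.026 over all genes with a mean under 10. Other marker lists that hold low genes went both ways. Without a filter, 8 of 10 cholangiocyte markers were above 0 with a median of 0.15, and 7 of 10 neutrophil and monocyte markers with a median of 0.22. Fewer were above 0 among Kupffer cell markers (6 of 18, median −0.096) and among stellate cell and fibroblast markers (5 of 12, median −0.048). The summed level of the cholangiocyte markers had a ratio of 1.08 (0.993 to 1.18) and that of the neutrophil and monocyte markers one of 1.81 (1.43 to 2.31). The part of these markers in the erythroid values was not tested. Slc4a1, the anion exchanger of the red cell membrane, had 31 reads in the OTD library and 11 in the control library, a ratio of 2.51 (1.23 to 5.53). Gypc, a red cell membrane protein, and Bpgm, which makes the regulator of oxygen release 2,3-bisphosphoglycerate, were named after their values were seen, with ratios of 1.49 (1.13 to 1.99) and 1.61 (1.24 to 2.12).

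Over the 19 erythroid genes the summed level was 95.1 in the OTD pool (1423 reads) and 72.7 in the control pool (968 reads), a ratio of 1.31 (1.20 to 1.42). Without the 3 genes with the most reads (Slc25a37, Alas2 and Bpgm), a choice made after seeing the data, it was 1.40 (1.20 to 1.64), from 419 OTD reads and 266 control reads. Tmod1, also chosen after its value was seen, had 4 reads in the OTD library and 0 in the control library, and 0 of the 19 were at 0 in the OTD library. Summed alpha-globin and the erythroid sum were thus higher in the OTD pool, at 1.27 and 1.31, while summed beta-globin and Alas2 stood at 1.06. Of the alpha-globin copies, Hba-a2 stood at 1.76 and Hba-a1 at 1.07, so Hba-a1 lay near beta-globin and Alas2. The part of blood left in the tissue in these ratios was not tested.

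**Figure D4:**
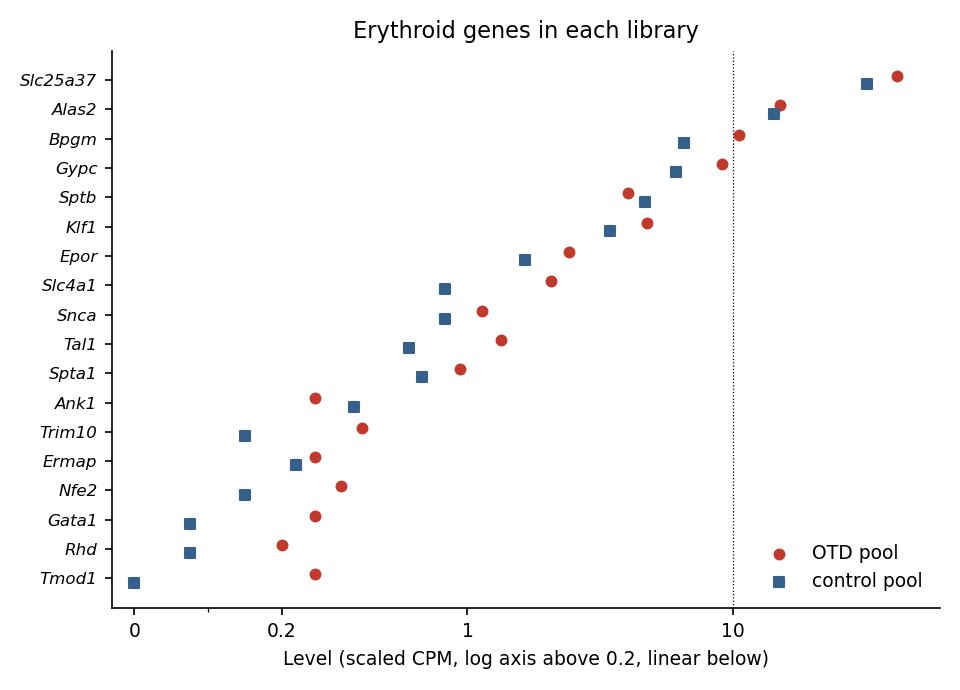
Level of 18 of the 19 deposited erythroid genes (scaled CPM, log axis above 0.2 and linear below) in the OTD pool (circles) and the control pool (squares), with a dotted line at the level of 10. The OTD circle lies right of the control square in 16 of the 18 genes drawn, most of them below 10.

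The scavenging genes were at or slightly below the control level in the OTD pool. Haptoglobin, made by hepatocytes, had 1285 in the OTD pool (19240 reads) and 1318 in the control pool (17548 reads). Its ratio was 0.975 (0.955 to 0.995), and its log2 ratio of −0.037 turned to 0.036 when the libraries were scaled to the same total without Rn45s. Hemopexin had 2303 in the OTD pool (34484 reads) and 2629 in the control pool (34992 reads), a ratio of 0.876 (0.863 to 0.889). Of measured genes, 14.9% had a lower log2 ratio than Hpx and 43.3% a lower one than Hp.

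Both genes belong to the acute phase response, and that list gave no common direction. Of its 25 genes 19 were measured, 7 above 0 and 12 below, where 48.4% of measured genes were above 0 and 51.6% below. Past 1.5-fold were 0 in either direction (1.51% of measured genes higher, 0.908% lower). The median log2 ratio was −0.082 and lay between −0.095 and −0.0090 over the alternatives. The serum amyloid gene Saa1 had a ratio of 1.41 (1.20 to 1.65) and Orm2 one of 1.27 (1.05 to 1.54), while Saa4 had 0.791 (0.744 to 0.840). Complement C3, the most abundant of the list, had 10631 in the OTD pool and 13290 in the control pool, a ratio of 0.800 (0.795 to 0.805). Albumin, a plasma protein of hepatocytes that also binds heme, had a ratio of 0.853 (0.851 to 0.856), close to that of Hpx. Of the 16 hepatocyte markers 14 were below 0, against 51.6% of measured genes, with a median log2 ratio of −0.11 (−0.12 to −0.038 over the alternatives).

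Cd163, the macrophage receptor for hemoglobin, had a level of 30.2 in the OTD pool (452 reads) and 34.5 in the control pool (459 reads). The ratio was 0.876 (0.767 to 0.999), with an upper bound next to 1. Of 18 Kupffer cell markers, all were in the table with reads in both libraries. Their summed level was 596.2 in the OTD pool and 635.7 in the control pool, a ratio of 0.938 (0.910 to 0.966). Scaled to the same total it was 0.975 (0.946 to 1.00), and without Rn45s in the totals 0.987 (0.958 to 1.02), where the interval held 1 in both. Of the 11 measured, 9 were below 0 and 2 above, where 51.6% of measured genes were below 0 and 48.4% above. Their median was −0.11 (−0.15 to −0.041 over the alternatives), and 0 were past 1.5-fold (1.51% of measured genes higher, 0.908% lower). Among the furthest from 1 were Mrc1, a mannose receptor also found on sinusoidal endothelium, at 0.880 (0.819 to 0.945) and the lysozyme gene Lyz2 at 1.12 (0.988 to 1.27). Csf1r, the receptor that keeps macrophages alive, had a ratio of 0.899 (0.809 to 0.999), and the protease gene Ctss, named after its value was seen, was the other gene above 0 at 1.09 (0.933 to 1.28). The lectin Clec4f, found on Kupffer cells, had a ratio of 0.924 (0.865 to 0.987), Cd5l one of 0.900 (0.831 to 0.975), Vsig4 one of 0.912 (0.778 to 1.07) and Timd4 one of 0.855 (0.614 to 1.19).

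Against Clec4f, the level of Cd163 was 0.248 (0.223 to 0.275) in the OTD pool and 0.262 (0.236 to 0.290) in the control pool, and these counting intervals overlapped. Against the summed Kupffer cell markers, a comparison added after seeing the data, it was 0.0506 (0.0460 to 0.0557) in the OTD pool and 0.0542 (0.0493 to 0.0596) in the control pool, which also overlapped. A difference of Cd163 beyond that of Clec4f or of this sum was not detectable at this depth.

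Other genes of heme handling went both ways. Of 16 listed, 12 were measured, 4 above 0 and 8 below, where 48.4% of measured genes were above 0 and 51.6% below. The median was −0.095, and 0 were past 1.5-fold in either direction (1.51% of measured genes higher, 0.908% lower). Lrp1, the receptor that takes up hemopexin with its heme, had 1626 in the OTD pool (24343 reads) and 2059 in the control pool (27406 reads), a ratio of 0.790 (0.776 to 0.804). Hmox1, the inducible enzyme that opens the heme ring and sets iron free, had 36.8 in the OTD pool (551 reads) and 30.1 in the control pool (401 reads), a ratio of 1.22 (1.07 to 1.39). The constitutive enzyme Hmox2 had 33.1 in the OTD pool and 38.8 in the control pool, a ratio of 0.855 (0.754 to 0.969). The inducible and the constitutive enzyme lay on opposite sides of 1.

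RNA of both ferritin subunits was slightly higher in the OTD pool. Fth1, the heavy subunit that oxidizes iron for storage, had 1124 in the OTD pool (16821 reads) and 983.6 in the control pool (13092 reads), a ratio of 1.14 (1.12 to 1.17). Ftl1, the light subunit that helps the core form, had 2772 in the OTD pool (41498 reads) and 2654 in the control pool (35326 reads), a ratio of 1.04 (1.03 to 1.06). In each scaling tried both stayed above 1 on the ratio scale.

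The subunits did not differ by the same amount. Ftl1 stood at 2.47 times the level of Fth1 (2.42 to 2.51) in the OTD pool and at 2.70 times (2.64 to 2.75) in the control pool, levels not divided by length and so to be compared only between pools. Ftl1 is the less certain of the pair, since 90.6% of its 50-base stretches also occur in transcripts of 17 other genes, most of all Ftl1-ps1 (73.4%), against 6.59% for Fth1. None of those 17 genes has a row in the deposited table, so how reads they share were counted is not known here.

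The genes of iron release, transport and uptake among the 10 had ratios below 1, but for Slc40a1 and Tfrc the interval held 1 when the libraries were scaled to the same total. Ferroportin (Slc40a1), the exporter of macrophages and hepatocytes, had 275.5 in the OTD pool (4124 reads) and 296.7 in the control pool (3949 reads), a ratio of 0.929 (0.889 to 0.970), or 0.977 (0.935 to 1.02) when scaled without Rn45s. Transferrin (Trf), the iron carrier of plasma, had 19235 in the OTD pool (287961 reads) and 22723 in the control pool (302463 reads), a ratio of 0.847 (0.842 to 0.851). It took 1.96% of all OTD reads and 2.23% of all control reads. Of the 10 genes it had the lowest log2 ratio, −0.24, and 9.97% of measured genes lay lower still. Its 50-base stretches are shared with an overlapping gene model, Gm20425 (79.8%), which has no row in the table.

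Tfrc, which takes up iron-loaded transferrin, had 32.3 in the OTD pool (483 reads) and 37.3 in the control pool (497 reads), a ratio of 0.864 (0.761 to 0.981). The 4 genes with iron-responsive elements thus split, with both ferritin subunits above 1 and Slc40a1 and Tfrc below. By the place of the element, the 5' UTR genes lay on both sides of 1 (Fth1, Ftl1 and Slc40a1), and the 3' UTR gene Tfrc lay below. Protein levels, on which a 5' element acts, were not measured here.

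**Figure D5:**
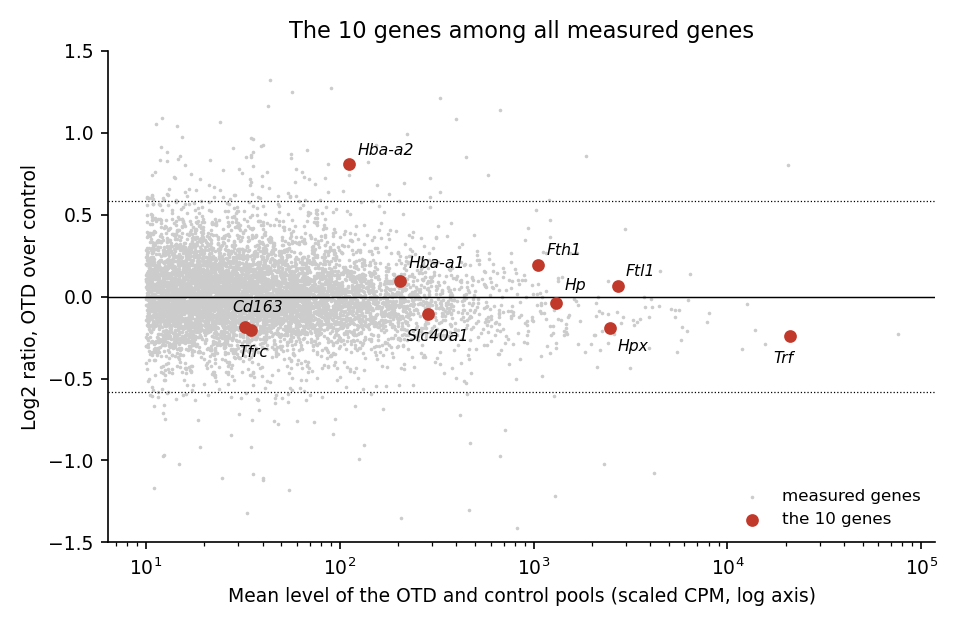
Log2 ratio of OTD over control (level + 1) against the mean level of the pools (scaled CPM, log axis) for 7602 measured genes in grey and the 10 genes in red, with dotted lines at 1.5-fold. Of the 10 genes only Hba-a2 (0.81) lies beyond a dotted line, and 7 grey points lie outside the axis.

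The wider iron genes were taken from lists of uptake and storage and of sensing. Of 22 uptake and storage genes 11 were measured, 3 above 0 and 8 below, where 48.4% of measured genes were above 0 and 51.6% below. The median log2 ratio was −0.062 and turned to 0.0089 when Rn45s was left out of the totals. Past 1.5-fold were 0 of them (1.51% of measured genes higher, 0.908% lower). The transporter Slc39a14, which brings free iron into hepatocytes, had 160.8 in the OTD pool and 197.7 in the control pool, a ratio of 0.813 (0.769 to 0.860). The iron chaperone gene Pcbp2 had a ratio of 0.825 (0.779 to 0.873). The importer Slc11a2 had a ratio of 0.957 (0.836 to 1.10) and the metal importer Slc39a8 one of 0.933 (0.841 to 1.04). Slc25a37, given above at 1.30, is on this list too and had the highest ratio of its 11 measured genes. Ceruloplasmin (Cp), the copper oxidase that readies iron for transferrin, had 1634 in the OTD pool and 1663 in the control pool.

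Of 21 iron sensing genes 16 were measured, 7 above 0 and 9 below, where 48.4% of measured genes were above 0 and 51.6% below. The median was −0.11. Past 1.5-fold were 1 higher gene and 1 lower gene, where 1.51% of all measured genes were that much higher and 0.908% lower. Hfe2, the older symbol of hemojuvelin (a co-receptor that drives hepcidin), had 39.3 in the OTD pool (589 reads) and 22.9 in the control pool (305 reads), a ratio of 1.72 (1.49 to 1.98). Id1, a target of the same BMP pathway, had 8.08 in the OTD pool (121 reads) and 16.8 in the control pool (223 reads), a ratio of 0.482 (0.383 to 0.605). The pathway inhibitor Smad7 had a ratio of 0.681 (0.599 to 0.773) and hepcidin itself (Hamp), the hormone that removes ferroportin, one of 0.784 (0.762 to 0.807). The protease gene Tmprss6, which cuts hemojuvelin, had a ratio of 0.864 (0.839 to 0.889). Others of the list went the other way, among them Hamp2, a second hepcidin gene, at 1.10 (1.04 to 1.17) and the BMP target Smad6 at 1.24 (0.972 to 1.59), both named after their values were seen.

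RNA of the genes for both iron regulatory proteins, which bind the elements printed above, was higher in the OTD pool. The proteins and their binding were not measured here. Aco1 had 283.2 in the OTD pool (4239 reads) and 240.2 in the control pool (3197 reads), a ratio of 1.18 (1.13 to 1.23). Ireb2 had 139.9 in the OTD pool (2095 reads) and 121.2 in the control pool (1613 reads), a ratio of 1.15 (1.08 to 1.23). Transferrin receptor 2 (Tfr2), the hepatocyte sensor of loaded transferrin, had 370.9 in the OTD pool and 437.1 in the control pool, a ratio of 0.849 (0.818 to 0.881).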

How the data were processed

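Ribosomal RNA was removed from 200 ng of RNA and a strand-keeping MGI library was built, per the labels' protocols. The submitters' processing notes name mm10, RSEM, Bowtie2, edgeR and Trimmomatic 0.38, without their roles. Whether counting used strand, and which annotation it used, is not given in the sources used here. The deposited table holds 1 normalized signal per gene symbol and library. Divided by what 1 read is worth, 100% of values in each column came out whole (tolerance 1e-06). The levels are CPM divided by a factor of 1.02 for OTD and 0.981 for control, and 3 reads give a level of 0.200 in OTD and 0.225 in control. Each column name holds either Ctrl or OTD, which gave its group. Wild, found in both names, is left unexplained by the labels.

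From these, log2 ratios (pseudocount 1), ratios and exact counting intervals were computed. Reads are not independent molecules, so intervals cover counting error only. With 1 library per group and no residual degree of freedom, no count test was possible and p-values are not given. A rule of size (1.5-fold and 2-fold) stood in for it. The 10 genes and the lists were chosen with earlier results of these data known. Genes named from a list could be the 4 largest absolute log2 ratios and the most abundant among measured genes, and genes that define it, and others are named as chosen after their values were seen. A few single genes are not reported here. Coordinates, transcripts and lengths came from GENCODE M21 on GRCm38 (96.0% of 15348 symbols matched), using the principal transcript of lowest number. The software was scipy 1.17.1, pandas 2.3.3, matplotlib 3.10.9 and numpy 2.4.6 in Python 3.11.15. Alternatives were pseudocounts of 0.5 and 10, 4 other scalings, filters of 50, 1 or none, and other groupings of the genes.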

Additional observations from a re-analysis of the deposited data

How the results depend on the processing

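With 1 library per group, 0 differences have a replicate check, and depth limits Cd163, Tfrc and most erythroid genes. The counts of the 10 genes past 1.5-fold and 2-fold were the same under each alternative. The median log2 ratio of the 10 genes was −0.072 and turned to 0.0013 when scaled to the same total without Rn45s and to 0.013 at a mean of at least 50, which leaves out Cd163 and Tfrc. It was −0.15 without the globin genes. Scaling without Rn45s moved the summed alpha-globin log2 ratio beyond its counting interval, to 0.42. For 117 single genes, 82 of 1006 alternative values left the counting interval, and 0 of the genes past 1.5-fold turned sign. Scalings added after seeing the data moved the counts of the 10 genes whose counting interval lay below 1 or held 1, which were 6 and 0 as deposited. They were 2 and 4 at the same total, 2 and 3 without Rn45s, and 5 and 1 at a median log2 ratio of 0. Hp was the 1 of the 10 genes with either sign (−0.050 to 0.036). Hba-a2 ranged from 0.75 to 0.88. The median of the further globins was −0.011 without a filter. The summed erythroid level, an alternative chosen after seeing the data, ranged from 0.37 to 0.45 in log2 ratio over 4 scalings. No paired analysis was possible because each group has 1 library.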

Other observations

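Markers of neutrophils and monocytes, white cells of the blood, were low in both pools. Of 12 listed, 10 were in the table and 0 were measured, with 212 reads in the OTD library and 104 in the control library and a ratio of the summed level of 1.81 (1.43 to 2.31). Lcn2, which binds iron-loaded siderophores and is also made by hepatocytes, gave 141 of those OTD reads and 64 of those control reads. It is also on the acute phase and iron lists, and its ratio, chosen for mention with its value known, was 1.96 (1.45 to 2.68).

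Beyond the 4 genes described, 12 measured genes held a match to the iron-responsive element by the same search, at any place in a protein-coding transcript. These are matches of letters, and binding was not measured. The 12 genes lay 6 above 0 and 6 below, with a median log2 ratio of 0.028, where 48.4% of measured genes were above 0. They were chosen by sequence after the other values were seen. Dstn, an actin-binding protein gene, had a ratio of 1.17 (1.10 to 1.24), and Serpina3c one of 0.911 (0.841 to 0.988).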
